A study of Mus musculus with 6 samples.

Results

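The 31 genes described here are read out in liver tissue as signs of its mononuclear phagocytes: Kupffer cells, monocytes and the macrophages that monocytes become. They were taken by gene symbol, 5 as Kupffer cell genes (Clec4f, Timd4, Cd5l, Marco and Vsig4), 3 as monocyte genes (Ly6c2, Ccr2 and Cx3cr1) and 23 as genes of macrophages or of myeloid cells in general. All 31 were found among the 39179 listed genes, and all 31 were among the 14365 genes with enough reads to be tested. The libraries were poly(A) RNA-seq of liver tumours, 3 labelled Myc/NrasG12V and 3 labelled Myc/Akt1. The tumours grew in wild-type C57BL/6 mice whose hepatocytes had received transposons by hydrodynamic injection, a fast, high-volume injection that carries DNA into hepatocytes. Both groups carried Myc, joined in one by Nras with the activating G12V change and in the other by Akt1. The oncogenes were therefore placed in hepatocytes, and the phagocytes came from the host. The age and sex of the mice, the time from injection to harvest and the promoters of the transposons are not given in the sources used here. No liver without oncogenes and no tumour with Myc alone was analysed here, so the values compare the 2 kinds of tumour with each other. The labels do not say whether each library came from its own mouse, so the p-values measure the spread between libraries, which may in part be technical.

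Kupffer cells are the macrophages that live in the liver sinusoids. They are seeded before birth, keep their numbers by self-renewal under the growth factor receptor Csf1r, and take up bacteria, worn red cells and debris through scavenger and complement receptors. Clec4f is found in the mouse on Kupffer cells nearly alone, and Timd4 marks the long-resident ones and is slow to appear on macrophages that have newly come from the blood. Classical monocytes carry high Ly6c2 and Ccr2, leave the bone marrow along the Ccr2 ligand Ccl2, and can turn into tumour macrophages or, when the niche is empty, into Kupffer cells. Spi1 encodes PU.1, the ETS factor that sets up myeloid gene expression by binding purine-rich sites built around GGAA.

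The promoters of Kupffer genes are shown because 4 of these 5 genes passed the same test in the same direction and because PU.1 is among the 31 genes. The windows are the 150 bases before the RefSeq start of each gene on the gene's own strand, in the build GRCm38.p6, at chr3:87357731-87357880 (plus strand) for Cd5l, chr1:120505025-120505174 (minus) for Marco, chrX:96293439-96293588 (minus) for Vsig4 and chr11:46810649-46810798 (plus) for Timd4. Capitals mark GAGGAA, the 6-base purine core typical of PU.1 sites, or TTCCTC where it lies on the other strand.
Cd5l: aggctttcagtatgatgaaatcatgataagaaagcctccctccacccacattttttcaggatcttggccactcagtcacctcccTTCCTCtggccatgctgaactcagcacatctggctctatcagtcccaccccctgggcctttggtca
Marco: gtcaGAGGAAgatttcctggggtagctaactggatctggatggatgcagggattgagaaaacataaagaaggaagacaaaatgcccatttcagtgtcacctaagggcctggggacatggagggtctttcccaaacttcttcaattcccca
Vsig4: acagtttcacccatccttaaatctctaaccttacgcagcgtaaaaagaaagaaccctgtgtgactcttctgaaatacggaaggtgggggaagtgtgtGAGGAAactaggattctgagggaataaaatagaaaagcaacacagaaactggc
Timd4: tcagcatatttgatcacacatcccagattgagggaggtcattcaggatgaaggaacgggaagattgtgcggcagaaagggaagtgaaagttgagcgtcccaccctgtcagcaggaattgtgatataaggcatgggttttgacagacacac
The match lies 66 bases before the start of Cd5l, 146 bases before that of Marco and 53 bases before that of Vsig4, which has another at 155 bases, outside the letters shown. No match lies in the window of Timd4, which did not pass the test, or of Clec4f, which did. The letters of Clec4f are not printed because its window overlaps the gene coordinates given for it below. Both strands of the 250 bases before the start were searched. Of the 31 genes 24 have a RefSeq window, and 14 of these (58.3%) hold the 6 letters, 3 of the 5 Kupffer genes and 11 of the other 19. Among all 27025 genes with such a window the share is 25.9%. A match is a description of the letters and not a bound site.

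The libraries held 17881282 to 27865094 reads, and levels are given in CPM, the reads of a gene scaled to the same total in every library. Nras was 3.05-fold higher in the libraries labelled Myc/NrasG12V and Akt1 4.30-fold higher in those labelled Myc/Akt1, with no overlap for either. Myc/NrasG12V replicate 3 stood apart from the other 5 libraries on the second principal component. The albumin transcript Alb, which marks hepatocytes, took 9.07 to 12.4% of the reads in Myc/NrasG12V and 2.99 to 3.85% in Myc/Akt1. On the CPM scale the median gene was lower in Myc/NrasG12V by 0.26 on the log2(CPM + 1) scale, and 1437 genes were called higher there against 4240 called lower. With TMM factors, which reset each library on the bulk of its genes, the split was 2331 against 2565 and the median difference was 0.00. Every difference below is Myc/NrasG12V minus Myc/Akt1 or the ratio of the means in that order, and can be read against that shift.

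Of the 31 genes 8 were higher in Myc/NrasG12V, and none was higher in the other group. The 8 were 4 of the 5 Kupffer genes (Clec4f, Cd5l, Marco and Vsig4), the scavenger receptors Cd163 and Mrc1, the lipopolysaccharide co-receptor Cd14 and the Fc receptor Fcgr3. The share called, 25.8%, stands beside 10.0% of all tested genes for that direction and 29.5% for the opposite one (limma on log2(CPM + 1), Benjamini-Hochberg adjusted p under 0.05). Toward Myc/Akt1 the count was 0 by limma, 0 at an unadjusted p under 0.05, and 0 by edgeR and by DESeq2. The libraries did not overlap for 11 of the 31 genes, each with Myc/NrasG12V above (35.5%, beside 14.8% of all tested genes); 38.0% of all tested genes, and none of the 31, were apart the other way. The median difference was 0.41 over the 31 genes, 1.497 over the 5 Kupffer genes and 0.30 over the other 26, beside -0.26 over all tested genes. In bulk tissue, fewer cells of a type and less RNA of a gene per cell cannot be told apart.

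**Figure D1:**
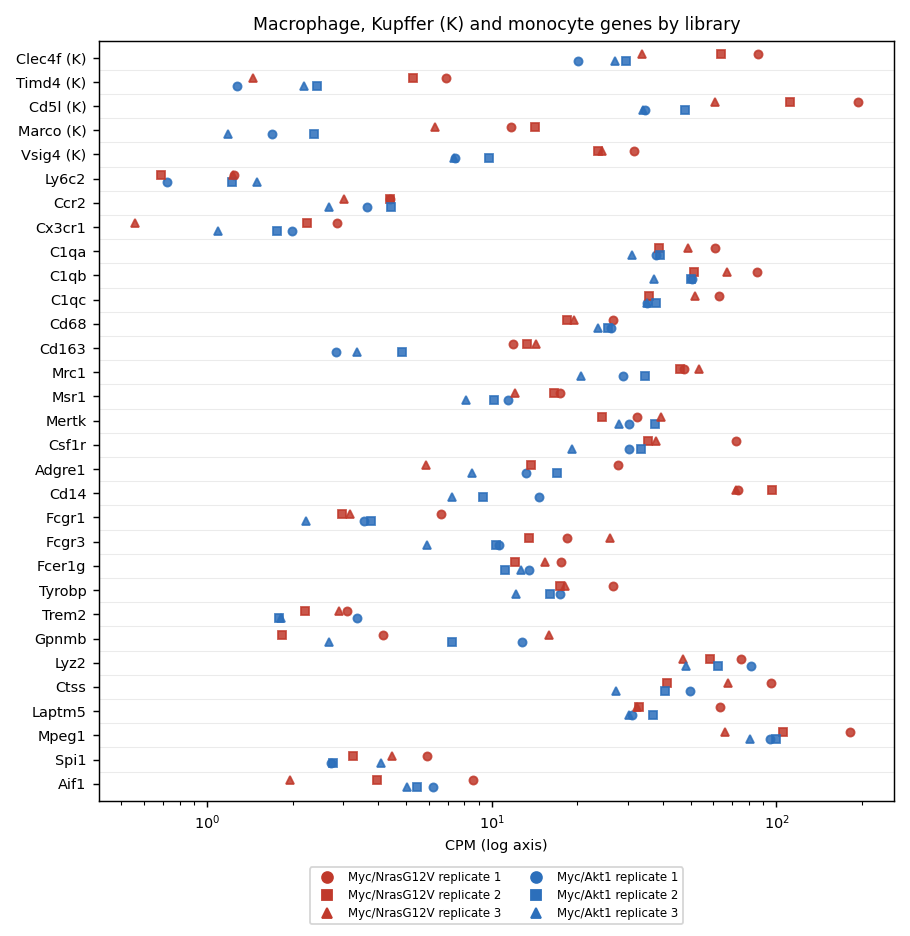
Level of each of the 31 genes in each library, in CPM on a log axis, with 1 point per library, red for Myc/NrasG12V and blue for Myc/Akt1. The red points of Cd14, Cd163, Marco and Vsig4 lie to the right of the blue ones with a clear gap, while those of Ly6c2, Ccr2, Lyz2 and Mertk are mixed with them.

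The Kupffer genes with the largest log2 differences were Marco and Vsig4, with Cd5l close to Vsig4 at 1.497. With a pseudocount of 5 Cd5l came first, at 1.41 beside 1.25 for Vsig4 and 1.19 for Marco. Marco, a scavenger receptor with a collagen-like stalk that binds bacteria (ENSMUSG00000026390, chr1:120474538-120505024, minus strand, GRCm38), read 11.7, 14.2 and 6.32 CPM in the 3 Myc/NrasG12V libraries and 1.70, 2.37 and 1.18 CPM in the 3 Myc/Akt1 libraries. Its lowest Myc/NrasG12V library was above its highest Myc/Akt1 library. The ratio of the means was 6.14 and the log2 difference 2.05 (95% interval 1.32 to 2.78, adjusted p = 0.00155). Vsig4, the complement receptor CRIg that captures C3-coated particles from the blood (ENSMUSG00000044206, chrX:96247203-96293438, minus strand), read 31.6, 23.6 and 24.3 CPM against 7.42, 9.76 and 7.36 CPM. The libraries of each group lay close together and the groups were far apart, at 26.5 ± 4.40 and 8.18 ± 1.37 CPM (SD, n = 3 each). The ratio was 3.24 and the log2 difference 1.58 (1.09 to 2.07, adjusted p = 0.000849).

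Cd5l, a secreted scavenger protein also called AIM that macrophages make under the oxysterol receptor LXR (ENSMUSG00000015854, chr3:87357881-87371073, plus strand), read 193.8, 111.6 and 61.1 CPM in Myc/NrasG12V and 34.6, 47.6 and 33.9 CPM in Myc/Akt1. All Myc/NrasG12V libraries were above, though they differed widely among themselves. The ratio was 3.15 and the log2 difference 1.497 (0.65 to 2.34, adjusted p = 0.0127). Clec4f, the C-type lectin that names the mouse Kupffer cell (ENSMUSG00000014542, chr6:83644542-83656187, minus strand), read 86.2, 64.0 and 33.6 CPM against 20.0, 29.6 and 27.0 CPM. The lowest Myc/NrasG12V library, replicate 3, was only just above the highest Myc/Akt1 library. The ratio was 2.40 and the log2 difference 1.15 (0.40 to 1.89, adjusted p = 0.0230). This call ended on leaving out any one of 4 libraries (replicates 1 and 2 of Myc/NrasG12V, replicates 1 and 3 of Myc/Akt1), with an adjusted p of up to 0.0851.

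Timd4, the phosphatidylserine receptor of resident macrophages that holds dying cells (ENSMUSG00000055546, chr11:46810800-46844332, plus strand), was the Kupffer gene that did not pass. It read 6.92, 5.28 and 1.45 CPM in Myc/NrasG12V and 1.27, 2.44 and 2.18 CPM in Myc/Akt1. Myc/NrasG12V replicate 3 lay within the Myc/Akt1 range, and the other 2 lay above it. The ratio was 2.32 and the log2 difference 0.77 with an interval from -0.19 to 1.72 (adjusted p = 0.180). It passed in DESeq2 on the reads and when Myc/NrasG12V replicate 3 was left out. Across the Kupffer genes Myc/NrasG12V replicate 3 was the lowest of its group for Clec4f, Timd4, Cd5l and Marco.

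The 3 monocyte genes showed no difference that passed in any of the 16 alternative analyses or the one reported, and their groups overlapped. Ccr2, the receptor by which monocytes leave the marrow, read 4.39, 4.41 and 3.02 CPM in Myc/NrasG12V and 3.65, 4.41 and 2.68 CPM in Myc/Akt1. The difference was 0.11 (95% interval -0.45 to 0.67, adjusted p = 0.743). Ly6c2, the surface antigen of classical monocytes, read 1.24, 0.689 and 1.23 CPM against 0.721, 1.22 and 1.5 CPM. Its difference was -0.06 (-0.56 to 0.44, adjusted p = 0.853). Cx3cr1, the fractalkine receptor of patrolling monocytes and many tissue macrophages, read 2.87, 2.25 and 0.559 CPM against 1.99, 1.76 and 1.09 CPM. Its difference was 0.06 (-0.72 to 0.84, adjusted p = 0.907). Ly6c2 has a close neighbour of like sequence, Ly6c1, so its reads may be split or shared between them. These levels are low. Ly6c2 and Cx3cr1 had the lowest levels per length of the 31 genes, 0.402 and 0.389 CPM per kb of exon. The log2(CPM + 1) scale can understate the differences of such genes. With a pseudocount of 0.1 those of Ccr2, Ly6c2 and Cx3cr1 were 0.14, -0.10 and -0.0042. With TMM factors and the pseudocount of 1 they were 0.36, 0.10 and 0.26. In edgeR on the reads, which also uses TMM factors, they were 0.47, 0.18 and 0.58. None of these values passed.

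**Figure D2:**
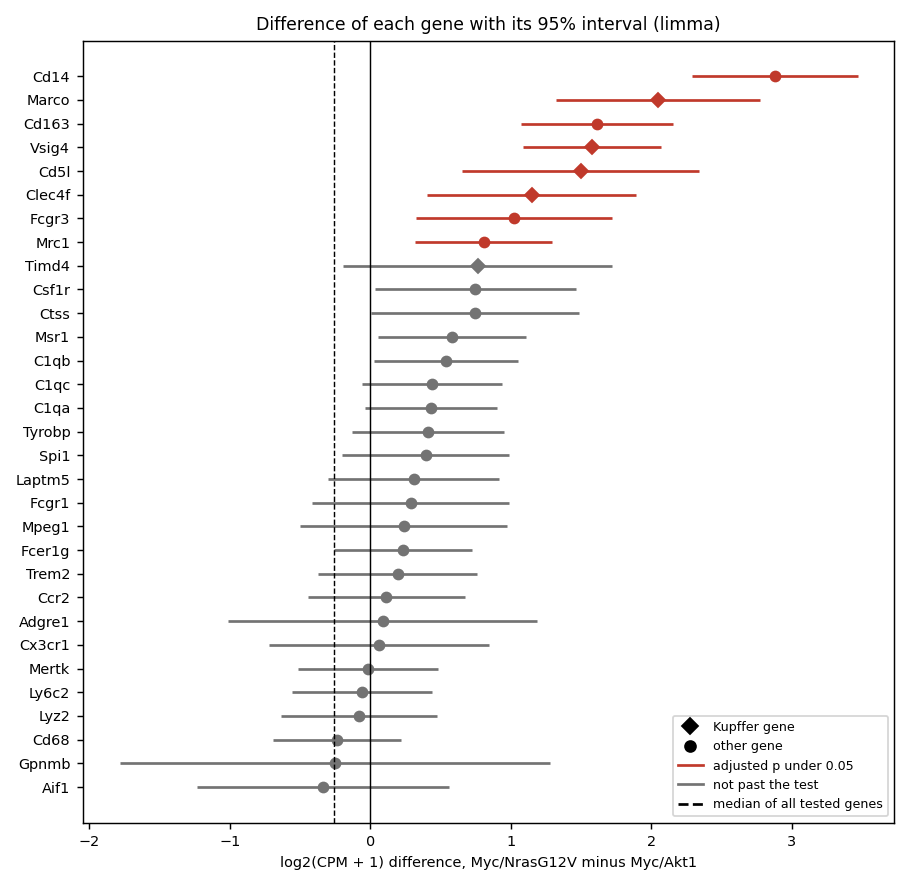
Difference of each of the 31 genes on the log2(CPM + 1) scale, Myc/NrasG12V minus Myc/Akt1, with its 95% limma interval, diamonds for Kupffer genes and red where the adjusted p is under 0.05. The differences run from -0.34 for Aif1 to 2.88 for Cd14, and the dashed line at -0.26 is the median of all tested genes.

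The scavenger receptors Cd163 and Mrc1, both typical of resident macrophages, were higher in Myc/NrasG12V, and the other clearance receptors did not pass. Mrc1 is also expressed by liver sinusoidal endothelium, whose genes are given below. Cd163, which takes up haemoglobin bound to haptoglobin (ENSMUSG00000008845, chr6:124304656-124330527, plus strand), read 11.9, 13.3 and 14.3 CPM in Myc/NrasG12V and 2.84, 4.84 and 3.36 CPM in Myc/Akt1. The groups were widely separated, with a ratio of 3.57 and a log2 difference of 1.61 (1.07 to 2.16, adjusted p = 0.00124). Mrc1, the mannose receptor CD206 (ENSMUSG00000026712, chr2:14229392-14332057, plus strand), read 47.3, 45.9 and 53.3 CPM against 28.8, 34.7 and 20.5 CPM. It did not overlap, with a ratio of 1.74 and a log2 difference of 0.81 (0.32 to 1.30, adjusted p = 0.0170).

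Msr1, the class A scavenger receptor for modified lipoproteins, read 17.4, 16.6 and 12.1 CPM against 11.4, 10.2 and 8.13 CPM. Each Myc/NrasG12V library was above each Myc/Akt1 library, but the difference of 0.58 missed the threshold (0.05 to 1.11, adjusted p = 0.0763). Mertk, the receptor tyrosine kinase that clears dying cells through Gas6 and protein S, read 32.0 ± 7.42 and 32.0 ± 4.86 CPM (SD, n = 3 each). Its difference was -0.01 (-0.51 to 0.48, adjusted p = 0.967) and became positive, at 0.29, with TMM factors, without passing. Cd68, the lysosomal glycoprotein used to stain macrophages of every kind, read 26.7, 18.3 and 19.4 CPM against 26.2, 25.7 and 23.7 CPM. Its difference of -0.24 did not pass (-0.69 to 0.22, adjusted p = 0.378) and was 0.07 with TMM factors.

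Cd14 showed the largest difference of the 31 genes. This co-receptor passes lipopolysaccharide to Tlr4 and is carried by monocytes, macrophages and neutrophils and can also be made by hepatocytes. It read 73.3, 96.8 and 72.0 CPM in Myc/NrasG12V and 14.6, 9.29 and 7.27 CPM in Myc/Akt1. The lowest of the first 3 was far above the highest of the other 3, with a ratio of 7.76 and a log2 difference of 2.88 (2.29 to 3.47, adjusted p = 0.000149). Tlr4 itself, to which Cd14 hands its ligand, did not pass (adjusted p = 0.968). Csf1r, the receptor for the macrophage growth factors Csf1 and Il34, read 72.2, 35.4 and 37.6 CPM against 30.4, 33.3 and 19.1 CPM. The groups did not overlap, but replicates 2 and 3 of Myc/NrasG12V were close to the top of Myc/Akt1 and the difference of 0.75 did not pass (0.04 to 1.46, adjusted p = 0.0884). Adgre1, which encodes the F4/80 antigen, read 27.6, 13.8 and 5.87 CPM against 13.2, 16.9 and 8.498 CPM. Its libraries were mixed, and its difference of 0.09 (adjusted p = 0.904) rested on replicate 1 of Myc/NrasG12V: the ratio was 1.22 with it and 0.762 without it.

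The C1q chains form the recognition part of the classical complement pathway, are made mainly by macrophages and are encoded side by side on chromosome 4. C1qa (chr4:136895917-136898803, minus strand) read 60.9, 38.6 and 48.7 CPM in Myc/NrasG12V and 37.8, 38.9 and 31.2 CPM in Myc/Akt1. C1qb (chr4:136880129-136886187) read 85.5, 51.3 and 66.9 CPM against 50.3, 50.2 and 37.0 CPM. C1qc (chr4:136889804-136893065) read 63.0, 35.8 and 51.9 CPM against 35.0, 37.6 and 35.0 CPM. The 3 chains moved side by side: each was highest in Myc/NrasG12V replicate 1, and in replicate 2 each was close to the Myc/Akt1 libraries. Their differences were 0.43, 0.54 and 0.44, with adjusted p of 0.130, 0.0877 and 0.145, and the groups were apart only for C1qb. With TMM, median-of-ratios or upper-quartile factors, and in edgeR and DESeq2, all 3 passed. The ratio of C1qa to C1qb within a library was 0.731 ± 0.0194 in Myc/NrasG12V and 0.789 ± 0.0470 in Myc/Akt1 (SD, n = 3 each), and the groups overlapped.

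Of the Fc receptors and their signalling partners, 1 of 4 passed. Fcgr3, a low-affinity activating receptor for IgG (ENSMUSG00000059498, chr1:171051174-171064935, minus strand), read 18.4, 13.5 and 26.1 CPM in Myc/NrasG12V and 10.6, 10.4 and 5.91 CPM in Myc/Akt1. No library crossed over, with a ratio of 2.16 and a log2 difference of 1.02 (0.33 to 1.72, adjusted p = 0.0275). The call ended with no filter on low genes, and on leaving out replicate 1 or 3 of Myc/NrasG12V or replicate 3 of Myc/Akt1, at an adjusted p of up to 0.0765. Fcgr3 resembles Fcgr2b and Fcgr4 in sequence, so shared reads cannot be assigned with certainty. Its signalling chain Fcer1g read 14.96 ± 2.77 and 12.5 ± 1.20 CPM (SD, n = 3 each), with a difference of 0.23 (adjusted p = 0.419). Tyrobp, the DAP12 adaptor that carries the signal of Trem2 and other receptors, read 20.7 ± 5.17 and 15.2 ± 2.71 CPM, with a difference of 0.41 (adjusted p = 0.204). The high-affinity IgG receptor Fcgr1 read 6.64, 2.98 and 3.19 CPM against 3.56, 3.77 and 2.23 CPM and did not pass (0.29, adjusted p = 0.493).

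The genes of lipid-associated macrophages, those of lysosomes and the general myeloid genes did not pass. Trem2, a lipid and lipoprotein receptor, read 2.74 ± 0.473 and 2.32 ± 0.892 CPM (SD, n = 3 each; adjusted p = 0.565). Gpnmb, a glycoprotein of foamy and scar-associated macrophages, read 4.15, 1.84 and 15.9 CPM in Myc/NrasG12V and 12.8, 7.25 and 2.68 CPM in Myc/Akt1. It had the widest interval of the 31 genes, -1.78 to 1.28 around -0.25 (adjusted p = 0.792). Its ratio was 0.964 over all libraries. Leaving out Myc/NrasG12V replicate 3 gave 0.395, and leaving out Myc/Akt1 replicate 1 gave 1.47. With TMM, median-of-ratios or upper-quartile factors, edgeR or DESeq2 its difference was not below 0, and it did not pass.

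Among the lysosomal and killing proteins, the cysteine protease cathepsin S (Ctss), which trims the invariant chain for antigen presentation, came closest. It read 96.0, 41.3 and 67.8 CPM against 49.8, 40.6 and 27.2 CPM, with overlap and a difference of 0.75 (0.01 to 1.49, adjusted p = 0.09996). Mpeg1, the pore-forming perforin-2 of phagocytes, read 180.8, 105.4 and 66.0 CPM against 95.2, 99.9 and 80.5 CPM. The Myc/NrasG12V libraries spanned the whole Myc/Akt1 range on both sides (0.24, adjusted p = 0.592). Lyz2, the lysozyme of macrophages, monocytes and neutrophils, read 74.9, 58.5 and 47.1 CPM against 81.7, 62.3 and 48.0 CPM. Its difference was -0.08 (adjusted p = 0.821) and 0.23 with TMM factors. Laptm5, a lysosomal membrane protein of blood cells, read 63.2, 32.9 and 32.3 CPM against 31.1, 36.8 and 30.3 CPM (0.31, adjusted p = 0.388). Lyz2 has the near copy Lyz1, with which reads may be shared.

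Spi1, which encodes PU.1, read 5.92, 3.26 and 4.47 CPM in Myc/NrasG12V and 2.72, 2.76 and 4.09 CPM in Myc/Akt1. The groups overlapped, and the difference of 0.39 did not pass (-0.20 to 0.99, adjusted p = 0.261). Aif1, the actin-binding protein Iba1, read 8.60, 3.95 and 1.96 CPM against 6.24, 5.45 and 5.04 CPM. Its difference was -0.34 (-1.23 to 0.56, adjusted p = 0.530), and its ratio of 0.867 became 0.529 without Myc/NrasG12V replicate 1. Aif1 was above 0 in edgeR and DESeq2, at 0.14 and 0.15, without passing.

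Compared per length, the most abundant of the 31 were C1qb at 52.3 CPM per kb of exon over the 6 libraries, Lyz2 at 47.2, C1qa at 41.0, Ctss at 39.6 and Cd5l at 39.5. The order was not the same in both groups. In Myc/NrasG12V the level of Cd5l was 59.997 CPM per kb, beside 62.4 for C1qb and 45.7 for Lyz2, and in Myc/Akt1 it was 19.0 beside 42.2 and 48.6. Cd14 stood at 46.6 CPM per kb in Myc/NrasG12V and at 6.01 in Myc/Akt1. The defining genes of macrophages were thus present in both kinds of tumour, and none of the 31 had fewer than 63 reads over the 3 libraries of a group.

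The Kupffer genes were also higher relative to the other macrophage genes of the same library, a comparison that no scaling between libraries enters apart from the pseudocount. The mean log2(CPM + 1) of the 5 Kupffer genes minus that of the other 26 was 0.62, 0.82 and -0.12 in Myc/NrasG12V replicates 1 to 3. In Myc/Akt1 replicates 1 to 3 it was -0.87, -0.38 and -0.36. The values were apart, with means of 0.44 ± 0.50 and -0.54 ± 0.28 (SD, n = 3 each), a difference of 0.98 that no test was run on. Replicate 3 of Myc/NrasG12V was the closest to the Myc/Akt1 libraries.

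Set against Csf1r in the same library, the Kupffer genes were not alike. Csf1r itself was 1.75-fold higher in Myc/NrasG12V without overlap, though it did not pass, and this lowers every ratio to it there. The ratio of Vsig4 to Csf1r was 0.437, 0.668 and 0.646 in Myc/NrasG12V and 0.244, 0.293 and 0.385 in Myc/Akt1, and that of Marco was 0.161, 0.403 and 0.168 against 0.0559, 0.0711 and 0.0618. Neither overlapped. The ratio of Clec4f was 1.19, 1.81 and 0.893 against 0.659, 0.888 and 1.41, and that of Cd5l was 2.68, 3.16 and 1.62 against 1.14, 1.43 and 1.77. Both overlapped, as did Timd4. Cd14 was the other gene of the 30 whose ratio to Csf1r was apart with Myc/NrasG12V above, at 1.02, 2.74 and 1.91 against 0.482, 0.279 and 0.380. Of the 30 genes 3 were thus apart with Myc/NrasG12V above, beside 3.71% of all tested genes.

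Another 7 of the 30 were apart with Myc/Akt1 above, beside 54.1% of all tested genes: Cd68, Aif1, Lyz2, Adgre1, Mpeg1, Laptm5 and Fcgr1. The ratio of Cd68 to Csf1r was 0.370, 0.518 and 0.516 in Myc/NrasG12V and 0.863, 0.771 and 1.24 in Myc/Akt1. That of Lyz2 was 1.04, 1.66 and 1.25 against 2.69, 1.87 and 2.51. The remaining 20 ratios overlapped, among them those of the 3 C1q chains and of the 3 monocyte genes.

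**Figure D3:**
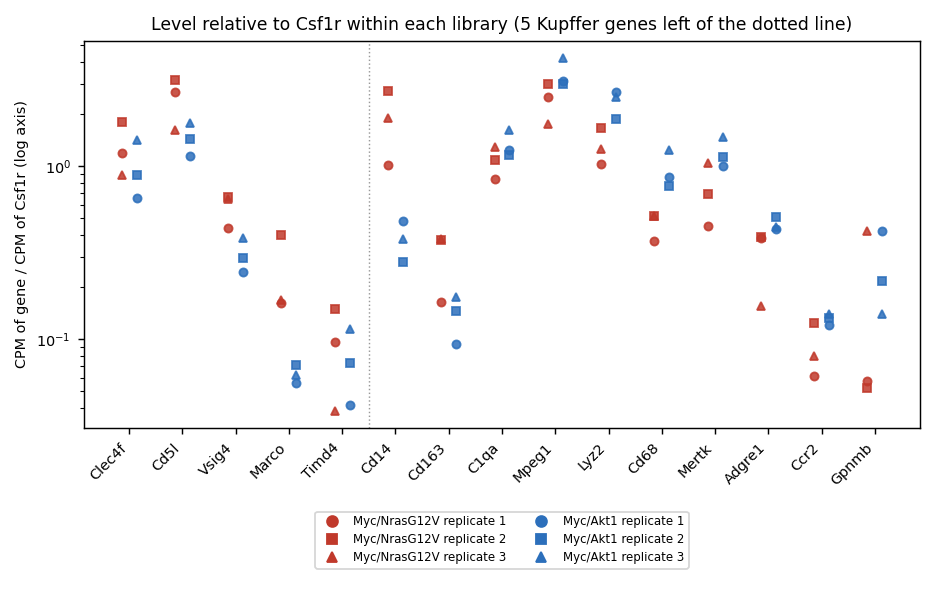
CPM of 15 of the genes divided by the CPM of Csf1r in the same library, on a log axis, with the 5 Kupffer genes left of the dotted line. Vsig4, Marco and Cd14 are higher in each red (Myc/NrasG12V) library than in any blue (Myc/Akt1) one, while Lyz2, Cd68, Mpeg1 and Adgre1 are lower. In CPM, Lyz2, Cd68, Mpeg1 and Adgre1 did not pass, and Csf1r itself was 1.75-fold higher in Myc/NrasG12V.

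Within each group 1 library was at the same end for most of the 31 genes. Myc/NrasG12V replicate 1 was the highest of its group for 23 of the 31 genes and the lowest for 1. Myc/Akt1 replicate 3 was the lowest of its group for 24 of the 31. Leaving out the former took the count of genes called to 6 (beside 8.07% of all genes), with Clec4f and Fcgr3 lost. Leaving out the latter also gave 6 (beside 8.99%). Cd5l, Marco, Vsig4, Cd163, Mrc1 and Cd14 stayed called in each of the 16 alternatives.

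The count also moved with the scaling of the libraries. With TMM factors 14 of the 31 genes (45.2%) were higher in Myc/NrasG12V, beside 16.2% of all genes. The count was 14 with median-of-ratios factors (beside 16.5%), 15 with upper-quartile factors (beside 17.7%) and 15 in edgeR (48.4%, beside 16.6%). DESeq2 called 17 (54.8%, beside 19.2%), the highest count. The 8 genes named above were among the calls with each of the 3 scaling factors, in edgeR and in DESeq2, and none of the 31 was called toward Myc/Akt1 in any alternative. The genes added with TMM factors were Csf1r, Msr1, Ctss and the 3 C1q chains. Tyrobp joined them with upper-quartile factors, in edgeR and in DESeq2, and Fcer1g and Timd4 in DESeq2. In no analysis were 14 genes called: the 3 monocyte genes, Cd68, Mertk, Adgre1, Fcgr1, Trem2, Gpnmb, Lyz2, Laptm5, Mpeg1, Spi1 and Aif1.

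**Figure D4:**
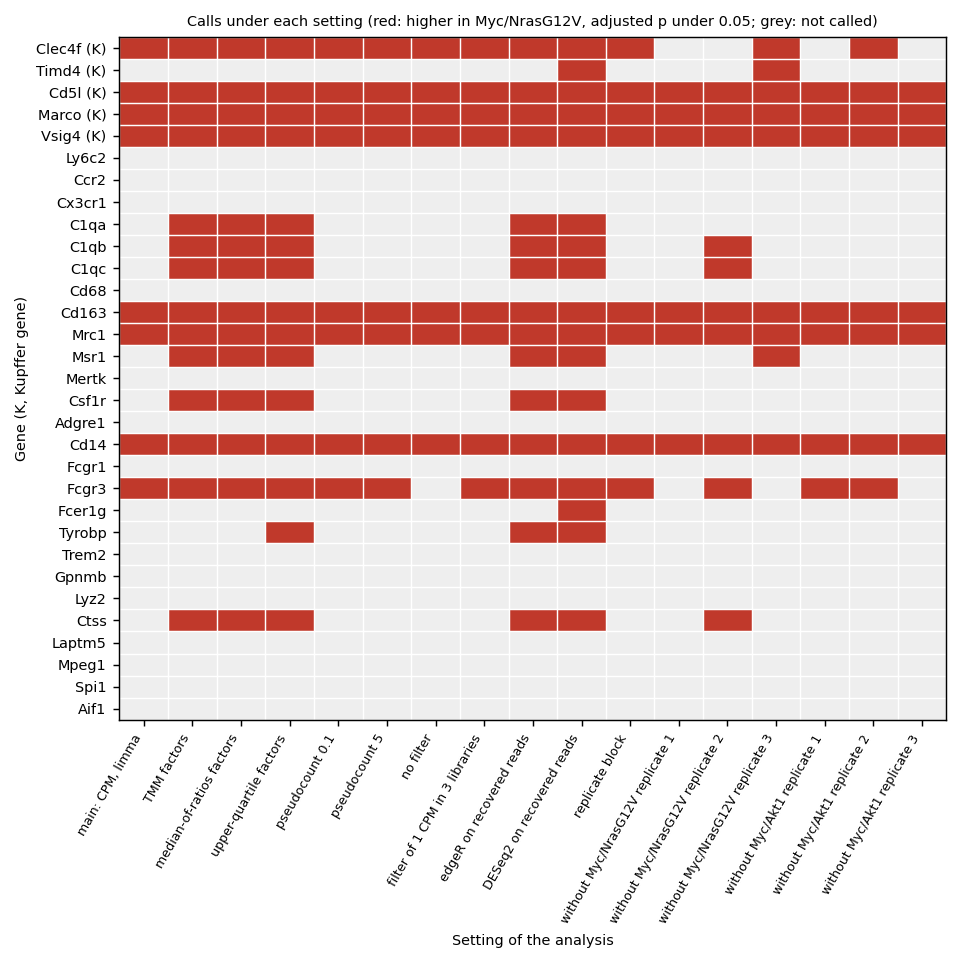
Calls of each of the 31 genes (rows) in the reported analysis and the 16 alternatives (columns), red where the gene was higher in Myc/NrasG12V at an adjusted p under 0.05 and grey where it was not called. The rows of Cd5l, Marco, Vsig4, Cd163, Mrc1 and Cd14 are red throughout, and the C1q chains, Csf1r, Msr1 and Ctss turn red with the other scaling factors and the count tools.

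The ligands and receptors that feed these cells were read from lists of the wider pathway. The counts of each list stand beside 10.0% of all tested genes higher in Myc/NrasG12V and 29.5% lower (16.2% and 17.9% with TMM factors). Of 8 tested growth factors and receptors 2 were higher in Myc/NrasG12V; none was lower by limma (1 at an unadjusted p under 0.05, 0 by edgeR and by DESeq2). With TMM factors, in edgeR and in DESeq2, 4 of the 8 were higher. The 2 called by limma were the granulocyte receptor Csf3r, at 8.17, 11.1 and 11.0 CPM against 2.29, 1.76 and 1.86 CPM (5.12-fold, adjusted p = 0.000461), and the cytokine receptor chain Csf2rb2 (6.32-fold, adjusted p = 0.000771). Csf2rb2 and Csf2rb are near copies and may share reads. The ligands of Csf1r did not pass: Csf1 read 10.5, 13.3 and 8.95 CPM against 15.4, 16.4 and 20.3 CPM (adjusted p = 0.0517), and Il34 1.67, 1.84 and 2.68 CPM against 1.02, 1.18 and 0.909 CPM (adjusted p = 0.0518). Both sat at the threshold. Csf1 was called lower in Myc/NrasG12V with a pseudocount of 0.1, with the filter of 1 CPM and on leaving out Myc/NrasG12V replicate 2. Il34 was called higher there with each of the 3 scaling factors, in edgeR and in DESeq2.

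Of 12 chemokines and receptors that draw monocytes 4 were higher in Myc/NrasG12V and 2 lower, the latter a smaller share than the 29.5% of all tested genes. Ccl2, the ligand of Ccr2, was one of these 2, at 2.67, 1.56 and 0.559 CPM in Myc/NrasG12V and 7.04, 5.45 and 6.998 CPM in Myc/Akt1 (log2 difference -1.61, adjusted p = 0.00497). Its receptor gene Ccr2 did not pass, as given above. Cxcl12, which acts through Cxcr4, was the other, at 58.9, 54.3 and 34.8 CPM against 138.0, 185.4 and 112.9 CPM (adjusted p = 0.00195). Ccl8 read 8.17, 4.68 and 4.75 CPM against 0.636, 0.179 and 0.0909 CPM (19.4-fold, adjusted p = 0.000360, and 43.4-fold without Myc/Akt1 replicate 1). Its value in Myc/Akt1 replicate 3 was below the 0.136 CPM that 3 reads are worth there, so these folds rest on few reads. Ccl5, a chemokine of T cells and macrophages, was 9.75-fold higher (adjusted p = 0.00390) and 5.08-fold without Myc/NrasG12V replicate 1. Cx3cl1, the ligand of Cx3cr1, did not pass (adjusted p = 0.870).

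Of 11 further Kupffer genes none was higher in Myc/NrasG12V by limma (3 at an unadjusted p under 0.05, 4 with TMM factors, 3 by edgeR and 5 by DESeq2) and 4 were lower (3 with TMM factors, by edgeR and by DESeq2). The 4 lower of 11 are close to the 29.5% of all tested genes. On leaving out Myc/NrasG12V replicate 3 the counts were 3 and 3. The 4 were Paqr9, Pcolce2, C6 and Cdh5, of which C6 is a complement protein made by hepatocytes and Cdh5 is the VE-cadherin of endothelium. Paqr9 read 5.54, 5.33 and 2.40 CPM against 197.7, 219.3 and 148.8 CPM. In Myc/Akt1 it was thus above each of the 5 Kupffer genes, the highest of which there, Cd5l, read 34.6, 47.6 and 33.9 CPM. Which cells made Paqr9 and Pcolce2 was not tested. Among 16 transcription factors of myeloid and Kupffer cells 3 were higher in each group by limma, and by edgeR 6 were higher in Myc/NrasG12V and 2 lower. On leaving out Myc/Akt1 replicate 3 they were 1 and 2. Nr1h3, which encodes LXRa, a factor of Kupffer cell identity that drives Cd5l and is also active in hepatocytes, read 45.6, 48.9 and 33.6 CPM against 84.9, 93.2 and 104.4 CPM (log2 difference -1.14, adjusted p = 0.00211). It was thus higher in Myc/Akt1, where Cd5l was lower.

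Of 13 further monocyte genes 8 were higher in Myc/NrasG12V; none was lower by limma (0 at an unadjusted p under 0.05, 0 by edgeR and by DESeq2). The count was 10 with TMM factors, 5 with no filter or without Myc/Akt1 replicate 2, and 3 without Myc/Akt1 replicate 3. The leading ones were Ace (24.6-fold), the fibronectin gene Fn1 (6.14-fold, at 4444, 3880 and 7117 CPM against 833.2, 966.3 and 716.9 CPM) and Plac8 (2.04-fold). Fn1 is also made by hepatocytes and fibroblasts, and Ace by endothelium. Of 33 further macrophage and myeloid genes 7 were higher in Myc/NrasG12V, led by Fcgr2b (3.16-fold) and the NADPH oxidase subunit Ncf1 (2.66-fold). Fcgr2b also belongs to the list of liver sinusoidal endothelium given below, where it had the lowest adjusted p. In Myc/Akt1 4 were higher, led by the actin-bundling protein Lcp1 (52.2, 37.1 and 31.5 CPM against 146.6, 141.4 and 116.9 CPM). With TMM factors the counts were 12 and 2. The 7 became 2 without Myc/Akt1 replicate 2, and 3 with no filter or on leaving out Myc/Akt1 replicate 1 or replicate 1 of the other group.

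Of 21 genes linked to lipid-laden and tumour macrophages 5 were higher in Myc/NrasG12V and 8 lower (6 and 4 with TMM factors and in edgeR), the lower ones near the share of all tested genes. The 8 became 4 with no filter and on leaving out Myc/NrasG12V replicate 2, Myc/Akt1 replicate 1 or Myc/Akt1 replicate 2. The fatty acid transporter Cd36 read 41.7, 50.4 and 44.7 CPM against 737.8, 571.8 and 405.8 CPM. The macrophage elastase Mmp12 read 4.11, 4.18 and 7.997 CPM against 39.8, 40.3 and 28.9 CPM, and the lysosomal lipase Lipa 88.2, 95.8 and 50.9 CPM against 441.6, 369.4 and 228.1 CPM. Cd36 and Lipa are also made by other cells of the liver, hepatocytes included. The 2 members of that kind, Trem2 and Gpnmb, did not pass.

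Of 14 genes that clear dead cells 4 were higher in Myc/NrasG12V, led by Scarb1 (2.64-fold), Stab1 (2.68-fold) and Mfge8 (1.75-fold). The count was 6 with TMM factors, in edgeR and in DESeq2, and 2 on leaving out Myc/Akt1 replicate 1 or 2. Which cells of the liver made these genes, phagocytes or others, was not tested. Elmo1 was lower in Myc/NrasG12V by limma, a call that was absent with TMM factors and in both count tools. The ligands of Mertk did not pass, Gas6 at an adjusted p of 0.413 and the protein S gene Pros1 at 0.695. Of 11 activation genes 4 were higher in Myc/NrasG12V; none was lower by limma (0 at an unadjusted p under 0.05, 0 by edgeR and by DESeq2). They were the co-stimulatory receptor Cd40 (7.50, 7.53 and 9.12 CPM against 0.933, 0.502 and 0.409 CPM), the cytokine Il1b (5.20, 5.37 and 3.64 CPM against 0.382, 0.790 and 0.682 CPM), Cd80 and Chil3. Chil3 was 32.7-fold higher with all libraries and 9.41-fold without Myc/NrasG12V replicate 3. Whether macrophages or other cells made these activation genes was not tested.

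Markers of other cell types moved with the same groups, and their part in the results above was not tested. Of 12 neutrophil genes 10 were higher in Myc/NrasG12V. Their summed level without Lcn2, which tumour hepatocytes can also make, was 28.8, 67.9 and 213.1 CPM in Myc/NrasG12V and 2.84, 2.94 and 2.36 CPM in Myc/Akt1. It was highest in replicate 3 of Myc/NrasG12V, the library of that group in which 4 Kupffer genes were lowest. Cd14, Lyz2, Fcgr3, Fcer1g and Tyrobp are also expressed by neutrophils. Of 12 T and NK cell genes 6 were higher in Myc/NrasG12V and 1 was lower (7 and 0 with TMM factors), and their sum was 47.1, 20.2 and 19.9 CPM against 9.25, 12.99 and 12.4 CPM. That sum was highest in replicate 1 of Myc/NrasG12V, as were 23 of the 31 genes.

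Liver sinusoidal endothelium also expresses Mrc1, with Stab2 and Lyve1. Of 10 endothelial genes 5 were higher in Myc/NrasG12V (3 with no filter or on leaving out Myc/NrasG12V replicate 2, Myc/Akt1 replicate 1 or Myc/Akt1 replicate 2), and their sum was 203.7, 292.4 and 232.6 CPM against 137.8, 189.7 and 168.1 CPM. Of 8 erythroid genes 6 were higher in Myc/NrasG12V (sums of 295.2 to 1860 CPM against 50.1 to 103.7 CPM). Of 10 hepatocyte genes 2 were higher in each group (with TMM factors 2 in Myc/NrasG12V and 0 in the other). Their sums were 114900 to 150400 CPM against 41820 to 56900 CPM. Without Alb, the most abundant of them, the sums were 24170 to 26690 CPM against 11920 to 18430 CPM. Of 8 dendritic cell genes and of 4 B and plasma cell genes none was higher in Myc/NrasG12V by limma (1 and 0 at an unadjusted p under 0.05, 1 and 0 by both edgeR and DESeq2), and 1 of each was lower; the call in the dendritic list was absent with TMM factors and in both count tools. No gene of these lists that the files hold was at 0 reads in every library.

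**Figure D5:**
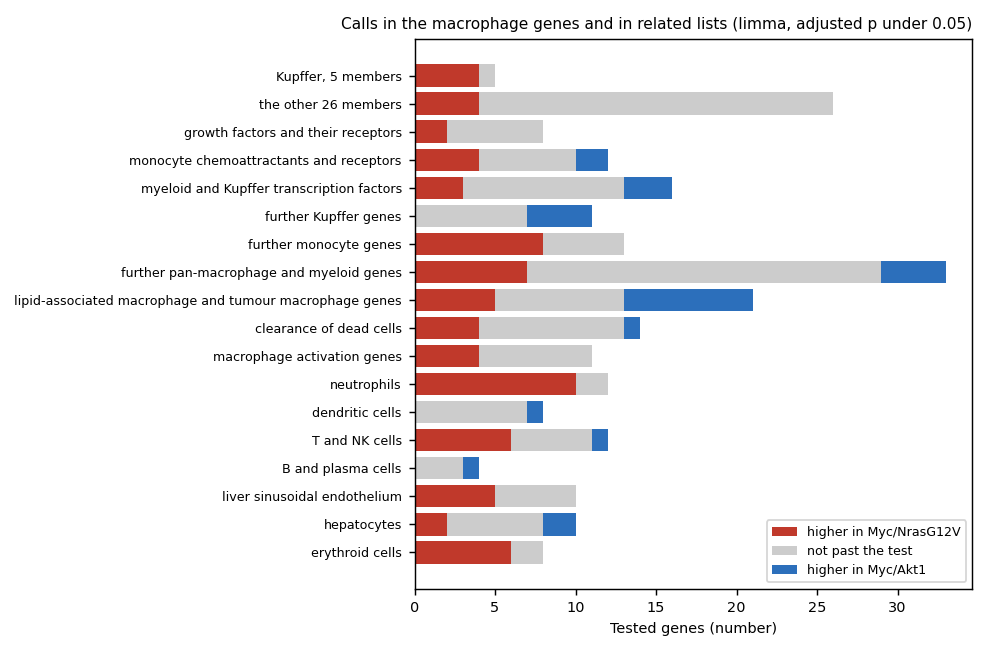
Number of tested genes of each list that were higher in Myc/NrasG12V (red), higher in Myc/Akt1 (blue) or not past the test (grey), by limma at an adjusted p under 0.05. The 5 Kupffer genes are red for 4 of 5 and the other 26 for 4, while the further Kupffer genes are blue for 4 of 11 and the neutrophil genes red for 10 of 12.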

How the data were processed

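RNA-seq of mouse liver tumours in 6 libraries was analysed, 3 Myc/NrasG12V and 3 Myc/Akt1, grouped by the genotype label. Per the labels' protocols the libraries were poly(A)-selected, stranded and single-end. The deposited values are CPM per gene, made by the authors, with the same total in each library. The submitters' processing notes name the build GRCm38 and the tools edgeR 3.22.5, STAR 2.6.1c and Subread 1.6.3. The handling of reads that map to several genes is not given in the sources used here. Whole reads were recovered from the CPM steps: 100% of values came out within 0.01 read of a whole number. The depth was 17881282 to 27865094 reads, where 1 read is worth 0.0359 to 0.0559 CPM.

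Genes with 0.457 CPM in 3 libraries and 15 reads in all (edgeR's filterByExpr) were kept, 14365. They were tested with limma 3.58.1 (R 4.3.3, trend, two-sided) on log2(CPM + 1), with Benjamini-Hochberg adjustment over all of them and a threshold of 0.05. The fit was tested on simulated data. Fold changes are ratios of mean CPM, while log2 differences carry the pseudocount of 1 and so can understate low genes. Alternatives were scaling by upper-quartile, TMM or median-of-ratios factors, pseudocounts of 0.1 and 5, no filter, a filter of 1 CPM in 3 libraries, edgeR 4.0.16 quasi-likelihood and DESeq2 1.42.0 on the recovered reads, a replicate block and leaving out each library. Coordinates and exon lengths are from GENCODE for GRCm38 and promoters from RefSeq for GRCm38.p6. All 31 genes are named. Of each further list the 3 genes of lowest adjusted p and the 2 of highest mean CPM could be named, with ligands and partners of the 31 genes and the members of small counts. The genes and lists were chosen with earlier results of these data known. The genes Elmo1, Cdh5, Il34, Ccl2, Cx3cl1, Gas6, Pros1 and Tlr4 are named as such partners or counts.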

Additional observations from a re-analysis of the deposited data

How the results depend on the processing

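The 6 libraries limit every value: leaving 1 out moved the number of the 31 genes called from 8 to between 6 and 10, that of Kupffer genes from 4 to between 3 and 5, and that of all genes from 5677 to between 3856 and 6298. With TMM and with median-of-ratios factors 14 of the 31 genes were called, with upper-quartile factors and in edgeR 15, and in DESeq2 17. The difference between Kupffer and other genes within a library, 0.98, stayed between 0.70 and 1.12, and between 0.79 and 1.26 with 1 library left out.

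The genes whose difference changed sign were not called in any analysis. With factors by TMM, by median of ratios and by upper quartile, then edgeR and DESeq2, in that order, Ly6c2 read 0.10, 0.10, 0.13, 0.18 and 0.19, Cd68 0.066, 0.071, 0.12, 0.094 and 0.10, Mertk 0.29, 0.30, 0.34, 0.31 and 0.31, Lyz2 0.23, 0.24, 0.29, 0.24 and 0.25, and Gpnmb 0.000287, 0.0024, 0.048, 0.20 and 0.20. Aif1 read 0.14 in edgeR and 0.15 in DESeq2, and Cx3cr1 -0.0042 with a pseudocount of 0.1. With 1 library left out, Ly6c2 ran from -0.21 to 0.076, Ccr2 from -0.036 to 0.26, Cx3cr1 from -0.20 to 0.46, Mertk from -0.17 to 0.16, Adgre1 from -0.42 to 0.61, Fcgr1 from -0.014 to 0.46, Gpnmb from -0.97 to 0.32, Lyz2 from -0.27 to 0.11, Laptm5 from -0.000828 to 0.47, Mpeg1 from -0.13 to 0.59 and Aif1 from -0.78 to 0.071. The cause of these changes was not tested.

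Deviations from the group means correlated at -0.08, 0.11 and 0.09 for replicate numbers 1, 2 and 3 of the groups. Between unlike numbers they ran from -0.136 to 0.087. With 3 libraries per group these values cannot decide whether the numbers pair the libraries. With the number as a replicate block 5530 genes were called in place of 5677, and 8 of the 31 as before, with no call of the 31 changed.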
